A study of Mus musculus with 6 samples.

Results

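Epithelial ion and fluid transport genes were followed in RNA sequencing of mouse intestinal organoids exposed to tyramine. The set was chosen by name and holds 9 genes, all present among the 24786 gene symbols of the deposited counts: Cftr, Slc12a2, Slc26a3, Slc26a6, Slc9a2, Slc9a3, Atp1b1, Car2 and Aqp1. Organoids are cultured epithelial structures grown from gut stem cells. Wild-type organoids were dispersed to single cells and kept for 16 h with 100 µM tyramine, a bacterial product of the amino acid tyrosine (3 libraries), or as controls (3 libraries). The labels call the controls DMSO, a solvent, and the series' design calls them control medium, and the solvent of the tyramine cultures is not given. The labels give neither the gut segment nor the age, sex or strain of the mice, nor whether replicates came from separate cultures. The p-values therefore describe variation among these 6 libraries alone, and that variation may be technical.

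The gut lining moves salt in both directions, and water follows. In secretion, the sodium-potassium-chloride cotransporter encoded by Slc12a2 (NKCC1) loads chloride across the basal membrane and the channel CFTR lets it out into the lumen. In absorption, sodium-proton exchangers such as NHE2 (Slc9a2) and NHE3 (Slc9a3) work beside the chloride-bicarbonate exchangers DRA (Slc26a3) and PAT1 (Slc26a6). Carbonic anhydrase 2 (Car2) supplies the protons and bicarbonate, the sodium pump, of which Atp1b1 encodes the beta 1 subunit, keeps sodium low inside the cell, and aquaporin 1 (Aqp1) is a water channel.

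Libraries held 28316372 to 35035955 counts, and 12139 genes had enough counts to be tested, among them all 9 transport genes; Aqp1 passed through the control libraries, since the minimum had to be met in 3 libraries and 1 tyramine library held 0 counts. Values are given as CPM, counts scaled to library size. The tyramine libraries were less alike than the controls: over all genes, the chi-square per degree of freedom between 2 libraries of a group was 25.8 to 33.5 in controls, 51.1 between tyramine replicates 1 and 2, and 95 and 90.2 between each of those and tyramine replicate 3. All 12 listed markers of enterocytes, the absorptive cells, were expressed in the controls, with a summed level of 17151 to 18127 CPM. These markers cannot tell organoids from other gut epithelium. Of the 6 listed crypt stem and progenitor markers, Lgr5, Olfm4 and Ascl2 averaged 0.584, 0.107 and 0.25 CPM in the controls. Smoc2, Axin2 and Sox9 of the same list were higher there, at 3.51, 27.5 and 77.7 CPM.

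Of the 9 genes, 7 fell with tyramine, 0 rose, and Slc12a2 and Slc9a2 did not pass the threshold. Across all genes tested, 25.8% changed, 13.3% falling and 12.5% rising (called at an adjusted p under 0.05 in edgeR's quasi-likelihood test). The 7 genes were lower in every tyramine library than in every control library, a pattern that 23.6% of all tested genes showed. The number that rose was also 0 at an unadjusted p under 0.05, with DESeq2 and with limma-voom. The median log2 fold change was -1.50 over the 9 genes and 0.00 over all genes tested. Without any 1 of the control libraries, or without tyramine replicate 2, 6 of the 9 fell, Car2 being the one that lost its call each time. In bulk RNA, fewer cells of a type and less RNA per cell cannot be told apart.

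**Figure D1:**
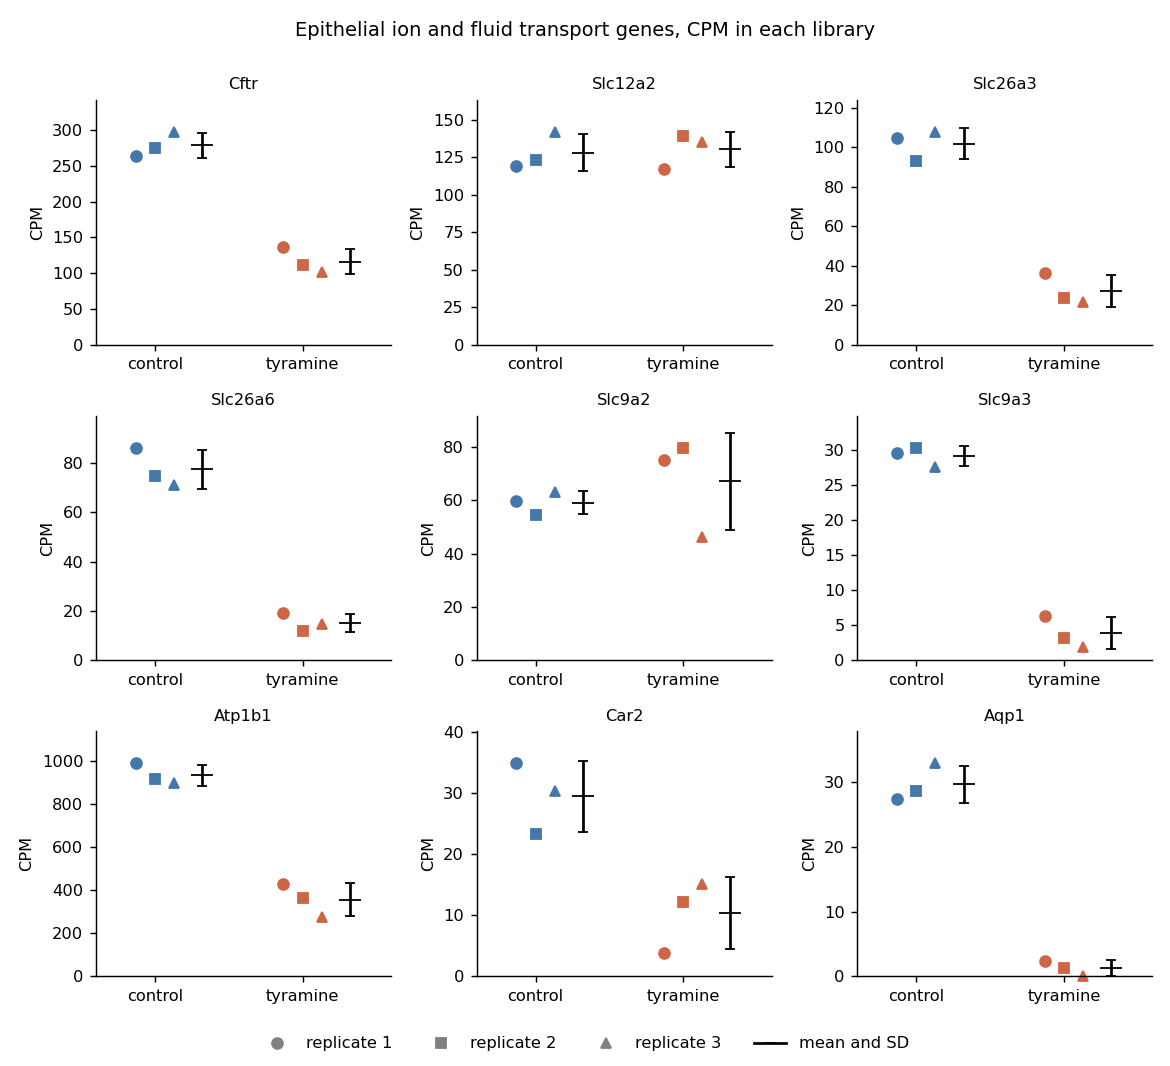
CPM of the 9 transport genes in each of the 3 control and 3 tyramine libraries, on axes that start at 0; symbols mark the replicate number and the black bar is the mean with its SD. The groups are apart in 7 panels and overlap for Slc12a2, at 117 to 142 CPM, and Slc9a2, at 46.3 to 79.7 CPM.

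Upstream sequence is shown for 4 of the genes that fell, to let their starts be compared. RefSeq promoters on GRCm38.p6 matched 6 of the 9 genes by symbol. Each run below lies just upstream of the RefSeq transcription start, reads 5′ to 3′ on the gene's plus strand, and has searched motifs in capitals. The windows are chr6:18170437-18170686 for Cftr, chr12:31437969-31438216 for Slc26a3, chr13:74121163-74121412 for Slc9a3 and chr6:55336049-55336298 for Aqp1. The run for Slc26a3 stops 2 bases short of the start, where GENCODE M21 annotates an exon. That start lies inside the GENCODE span of Slc26a3, 31390871 to 31473917, whereas the windows of Cftr, Slc9a3 and Aqp1 lie before their GENCODE spans.
Cftr: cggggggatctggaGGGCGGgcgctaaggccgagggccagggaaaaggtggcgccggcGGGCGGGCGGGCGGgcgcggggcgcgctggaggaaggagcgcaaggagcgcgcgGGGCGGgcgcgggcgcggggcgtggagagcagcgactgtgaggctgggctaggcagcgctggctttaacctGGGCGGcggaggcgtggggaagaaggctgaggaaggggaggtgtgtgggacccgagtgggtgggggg
Slc26a3: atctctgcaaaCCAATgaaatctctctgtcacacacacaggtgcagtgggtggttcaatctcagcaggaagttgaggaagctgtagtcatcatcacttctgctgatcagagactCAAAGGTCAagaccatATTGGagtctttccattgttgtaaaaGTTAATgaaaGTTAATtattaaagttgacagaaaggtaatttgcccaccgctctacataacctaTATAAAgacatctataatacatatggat
Slc9a3: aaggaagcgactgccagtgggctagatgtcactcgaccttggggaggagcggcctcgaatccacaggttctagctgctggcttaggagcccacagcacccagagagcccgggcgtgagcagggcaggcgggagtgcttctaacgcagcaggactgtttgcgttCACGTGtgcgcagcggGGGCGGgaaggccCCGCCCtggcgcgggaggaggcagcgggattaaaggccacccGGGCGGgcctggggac
Aqp1: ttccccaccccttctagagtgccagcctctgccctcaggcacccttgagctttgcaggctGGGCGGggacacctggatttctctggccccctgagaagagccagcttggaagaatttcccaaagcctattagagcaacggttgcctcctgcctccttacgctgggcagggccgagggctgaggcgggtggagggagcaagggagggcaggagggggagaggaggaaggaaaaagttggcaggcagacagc
The 4 windows differ in composition. Over 250 bases, G and C made up 76.4% of the Cftr window, 67.6% of Slc9a3, 62% of Aqp1 and 38.8% of Slc26a3, against a median of 52.4% over 32851 RefSeq promoters. The GC box letters GGGCGG, searched like all motifs on both strands, occurred 6 times upstream of Cftr, with some copies overlapping by 2 bases, 3 times upstream of Slc9a3, once upstream of Aqp1 and not in the Slc26a3 window; 32.7% of all windows held them. The Slc26a3 window held the TATA box letters TATAAA 30 to 25 bases before the start (12.4% of all windows), the HNF1 half-site GTTAAT at 94 to 89 and again at 84 to 79 bases (6.43%), the HNF4-type letters CAAAGGTCA at 136 to 128 bases (0.426%) and CCAAT on each strand (33.8%). Slc9a3 held the E-box CACGTG at 87 to 82 bases before the start (6.02%). A cAMP response element, TGACGTCA, was in none of the 6 windows and in 1.55% of all windows. The CDX2-type letters TTTATG were likewise in none of the 6, against 10.8% of all windows. The antioxidant response element TGACNNNGC was in none of the 6 and in 10.2% of all windows. The motifs were chosen with the sequences in view, and a match describes letters, not a bound site.

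Of the genes of chloride secretion, the apical channel fell and the basal cotransporter did not pass the threshold. Cftr, the channel mutated in cystic fibrosis (GRCm38 chromosome 6, 18170687 to 18322768, plus strand), measured 264, 275 and 298 CPM in control replicates 1 to 3 and 136, 112 and 101 CPM in tyramine replicates 1 to 3. The groups did not overlap, and tyramine replicate 3 was the lowest library. The means were 279 ± 17.3 and 116 ± 17.9 CPM (SD, n = 3 each), 2.39-fold lower with tyramine (a log2 fold change -1.26, SE 0.129; edgeR adjusted p = 8.9e-05).

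Slc12a2, whose product loads chloride into the cell, measured 119, 123 and 142 CPM in controls and 117, 139 and 135 CPM with tyramine. The groups overlapped along almost their whole range. The means were 128 ± 12.3 and 131 ± 11.8 CPM, with a log2 fold change of 0.03 (95% interval -0.25 to 0.31; edgeR adjusted p = 0.89). Its sign turned under other settings, to -0.05 with scaling to library totals alone. Within each library, Cftr took 67.7% to 69.1% of the counts of the 2 genes in controls and 53.8%, 44.5% and 42.8% in tyramine replicates 1 to 3. The log2 ratio of Cftr to Slc12a2 went from 1.13 ± 0.0507 to -0.17 ± 0.342 without overlap (exact two-sided permutation test over libraries, p = 0.1, the smallest that 3 against 3 allows, and 0.2 after Benjamini-Hochberg adjustment over the 4 ratios computed, 3 of which are given). The ratios were chosen with the values in view.

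Both anion exchangers of the apical membrane fell. Slc26a3, the exchanger lost in congenital chloride diarrhoea (chromosome 12, 31390871 to 31473917, plus strand), measured 105, 92.9 and 108 CPM in controls and 36.3, 23.5 and 21.5 CPM with tyramine. All tyramine libraries were far under the controls, with replicate 1 the highest of them. Its level fell 3.77-fold, from 102 ± 8.14 to 27.1 ± 8.02 CPM (log2 fold change -1.91, SE 0.213; edgeR adjusted p = 0.00016).

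Slc26a6, a broader anion exchanger that also carries oxalate (chromosome 9, 108853283 to 108913049, plus strand), measured 86.3, 74.9 and 71 CPM in controls and 19.1, 11.9 and 14.6 CPM with tyramine. The groups were again apart. The fall was 5.09-fold, from 77.4 ± 7.98 to 15.2 ± 3.64 CPM (log2 fold change -2.35, SE 0.218; edgeR adjusted p = 5e-05). Both exchangers fell, and the log2 ratio of Slc26a3 to Slc26a6 was 0.40 ± 0.178 in controls and 0.82 ± 0.233 with tyramine, with overlapping libraries (exact permutation p = 0.2, adjusted 0.267).

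Of the sodium-proton exchangers among the 9, Slc9a3 fell and Slc9a2 did not pass the threshold. Slc9a3 encodes NHE3, the main brush border exchanger of sodium absorption (chromosome 13, 74121457 to 74169442, plus strand). It measured 29.5, 30.3 and 27.5 CPM in controls, close to each other, and 6.39, 3.24 and 1.95 CPM with tyramine. The tyramine libraries scattered widely among themselves but none came near a control. The fall was 7.54-fold, from 29.1 ± 1.41 to 3.86 ± 2.28 CPM (log2 fold change -2.91, SE 0.431; edgeR adjusted p = 0.00092).

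Slc9a2 encodes NHE2, a second apical exchanger (chromosome 1, 40680574 to 40769273, plus strand). It measured 59.8, 54.5 and 63 CPM in controls and 75, 79.7 and 46.3 CPM with tyramine. Tyramine replicates 1 and 2 were above every control and replicate 3 was below every control. The log2 fold change was 0.18 (95% interval -0.28 to 0.65, edgeR adjusted p = 0.59). With 1 library left out it ran from 0.04, without tyramine replicate 2 (edgeR adjusted p = 0.92), to 0.39, without tyramine replicate 3 (0.07). Slc9a3 took 30.4% to 35.7% of the counts of the 2 genes in controls and 7.85%, 3.91% and 4.04% in tyramine replicates 1 to 3. The log2 ratio of Slc9a3 to Slc9a2 went from -1.02 ± 0.173 to -4.24 ± 0.599 without overlap, the widest shift of the 3 ratios given (exact permutation p = 0.1, adjusted 0.2).

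**Figure D2:**
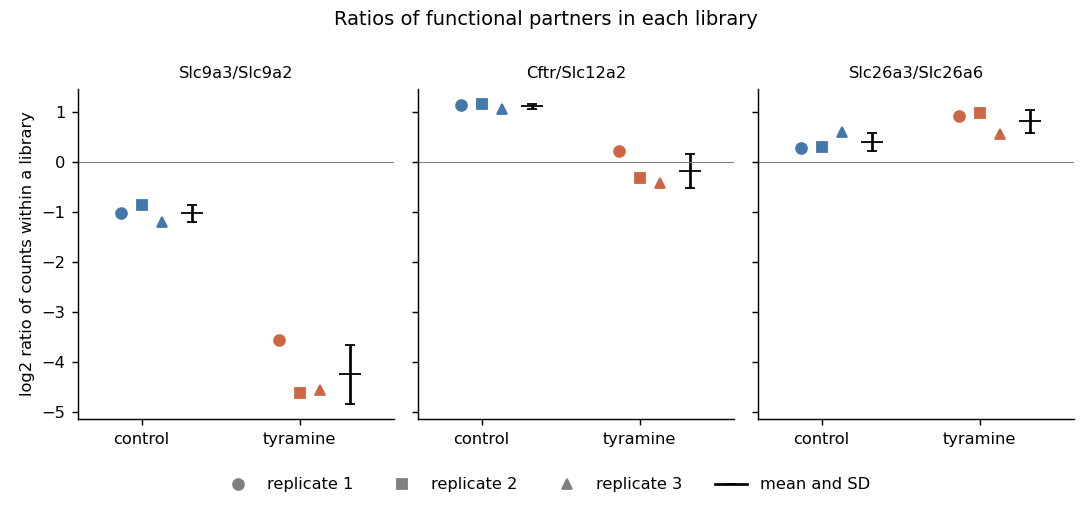
Log2 ratios of the counts of 2 genes within each library, for 3 pairs with linked roles; symbols mark the replicate number and the black bar is the mean with its SD. The groups are apart for Slc9a3/Slc9a2 and Cftr/Slc12a2 and overlap for Slc26a3/Slc26a6.

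Atp1b1, the beta 1 subunit that carries the sodium pump to the membrane (chromosome 1, 164437109 to 164458355, minus strand), had the highest level of the 9 genes. It measured 988, 916 and 896 CPM in controls and 426, 363 and 274 CPM with tyramine. No library of either group came near the other group. The fall was 2.63-fold, from 933 ± 48.1 to 354 ± 76.4 CPM (log2 fold change -1.40, SE 0.145; edgeR adjusted p = 1e-04). The 3′ neighbour Nme7 overlaps Atp1b1 by 617 bases on the opposite strand and had 99 to 632 counts, and the strand setting of the counting is not given, so some reads of the pair cannot be told apart. Atp1b3, another beta subunit of the pump, averaged 29.1 ± 2.73 and 43.5 ± 11 CPM and did not pass the threshold (log2 fold change 0.58; edgeR adjusted p = 0.086).

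Car2, the cytosolic carbonic anhydrase (chromosome 3, 14886273 to 14900770, plus strand), measured 34.9, 23.3 and 30.3 CPM in controls and 3.88, 12.1 and 15.2 CPM with tyramine. The groups did not overlap, but both were wide, and unlike most of the 9 genes the lowest value was in tyramine replicate 1. The fall was 2.83-fold, from 29.5 ± 5.85 to 10.4 ± 5.85 CPM (log2 fold change -1.50, SE 0.446; edgeR adjusted p = 0.033). The call was lost without control replicate 1, 2 or 3 (adjusted p = 0.13, 0.062 and 0.11) and without tyramine replicate 2 (adjusted p = 0.06).

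Aqp1 (chromosome 6, 55336432 to 55348555, plus strand) measured 27.4, 28.7 and 32.9 CPM in controls. With tyramine it measured 2.4, 1.35 and 0 CPM, from 68, 43 and 0 counts; a count of 0 in replicate 3 allows up to 0.104 CPM, taken as 3 counts. Controls were close together, the first 2 tyramine libraries lay far below them, and the third was at 0. The fall was the largest of the 9, 23.7-fold, from 29.7 ± 2.86 to 1.25 ± 1.2 CPM (log2 fold change -4.56, SE 0.961; edgeR adjusted p = 0.0078). It was -5.42 without tyramine replicate 1 and -3.98 without tyramine replicate 3. Aqp1 is also a gene of endothelial and red blood cells. Endothelial markers were near 0 in both groups: the 8 markers summed to 0.548 to 1.25 CPM in controls and 0.348 to 2.68 CPM with tyramine, and 0 of 8 had enough counts to be tested. The 8 blood cell markers summed to 1.51 to 5.66 CPM in controls and 1.85 to 4.13 CPM with tyramine. The part of either cell type in the level of Aqp1 was not tested.

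Scatter between libraries was larger with tyramine for 8 of the 9 genes and smaller for Slc12a2. The coefficient of variation ran from 4.85% (Slc9a3) to 19.8% (Car2) in controls and from 9.01% (Slc12a2) to 96.2% (Aqp1) with tyramine. Tyramine replicate 3 was the lowest of its group for 6 of the 9 genes and the highest for 1, Car2, and tyramine replicate 1 was the highest for 6.

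Compared per length, as CPM per kilobase of transcript (RPKM), Atp1b1 stood far above the others in both groups, at 362 ± 18.8 RPKM in controls and 137 ± 29.6 with tyramine. In controls Cftr (44.3 ± 2.75) and Slc26a3 (35.1 ± 2.75) came next. Slc12a2 (19.6 ± 1.88), Slc26a6 (17.7 ± 1.82) and Car2 (16.5 ± 3.27) overlapped each other, as did Slc9a2 (11.8 ± 0.855) and Aqp1 (11.3 ± 1.09), and Slc9a3 was lowest at 5.69 ± 0.282 RPKM. With tyramine, Slc12a2 (20 ± 1.8), Cftr (18.5 ± 2.84) and Slc9a2 (13.3 ± 3.6) followed Atp1b1, with overlap between Slc12a2 and Cftr and no library of Slc9a2 above the lowest Cftr library. The exchangers Slc26a3 (9.32 ± 2.76) and Slc26a6 (3.48 ± 0.834) and Car2 (5.81 ± 3.27) lay lower, with the Car2 libraries overlapping those of both exchangers, and Slc9a3 (0.754 ± 0.446) and Aqp1 (0.476 ± 0.458) were lowest and overlapped. The order rests on 1 annotated transcript length per gene, and the transcripts that the reads came from were not analysed here.

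**Figure D3:**
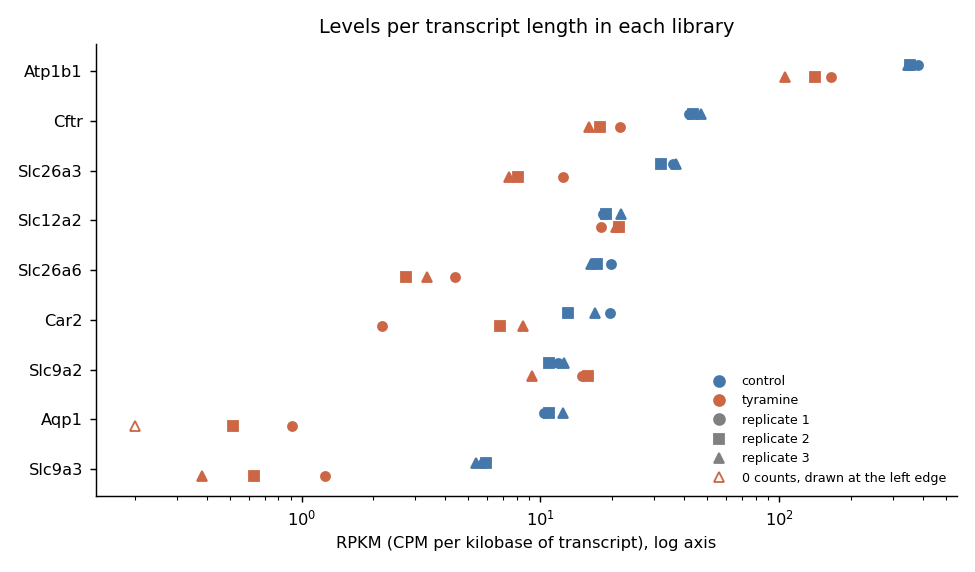
Level per kilobase of transcript (RPKM, log axis) of the 9 genes in each library, ordered by the control mean; colour marks the group and symbol the replicate number. Slc12a2 and Slc9a2 keep overlapping groups, and Slc9a3 and Aqp1 fall to 1.25 RPKM or less, the open symbol being the Aqp1 library with 0 counts.

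Markers of enterocytes and of some other cell types were also lower with tyramine. Of all genes tested, 13.3% fell and 12.5% rose, and the shortest lists hold too few tested markers to set against these shares. All 12 enterocyte markers fell, and their summed level went from 17151 to 18127 CPM in controls to 3209 to 3238 CPM with tyramine. Their median log2 fold change was -3.54, against -1.50 for the 9 transport genes. Of 7 tested goblet cell markers 4 fell and 0 rose (summed level 121 to 148 CPM in controls and 58.7 to 71.6 with tyramine), and of 6 tested enteroendocrine markers 4 fell and 0 rose (1069 to 1074 and 318 to 496 CPM). Of 5 tested Paneth markers 1 fell (38.3 to 76.3 and 19.1 to 44 CPM), and of 3 tested crypt stem and progenitor markers 0 passed in edgeR, while 1 fell with DESeq2 and 1 at an unadjusted p under 0.05 (105 to 118 and 91.5 to 102 CPM). Sox9, at 77.7 CPM in controls, and Axin2, at 27.5, made up most of that sum, while the stem cell markers Lgr5, Olfm4 and Ascl2 were at 0.584, 0.107 and 0.25 CPM in controls and were not tested. Of 9 fibroblast and smooth muscle markers, 5 were tested and 0 passed in edgeR, DESeq2 or limma-voom, with 1 higher at an unadjusted p under 0.05 (19.6 to 20.1 and 22.8 to 29.5 CPM). Of 4 markers listed for CFTR-high duct-like and bestrophin cells, Best4 was absent from the counted symbols and 1 was tested. That gene, Hepacam2, fell from 2.28 ± 1.05 to 0.0232 ± 0.0402 CPM (edgeR adjusted p = 0.014), while Foxi1 and Ascl3 were at 0 in all 6 libraries. With 1 low gene tested, the list cannot report on such cells. Hepacam2, with 0, 0 and 2 counts with tyramine, passed the filter through the control libraries alone. So did the falling Paneth marker Ang4 and enteroendocrine marker Tph1, both at 0 counts in every tyramine library. The enterocyte marker Lct, with 0, 0 and 13 counts with tyramine, likewise passed because of the controls. Of 6 colonocyte markers, 2 were tested and 1, Slc26a2, rose. The other, Ceacam20, averaged 2.6 ± 0.968 and 1.32 ± 0.684 CPM and did not pass (edgeR adjusted p = 0.5). The summed level, 12.9 to 13.4 CPM in controls and 24.8 to 37.7 with tyramine, was mostly Slc26a2. The part of any of these cell types in the fall of the transport genes was not tested.

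The wider set of ion and fluid transport genes moved both ways, with more falls than rises. It was drawn up from textbook roles with earlier results of these data known, so its shares are a description. It holds 88 genes, of which 58 were tested: 21 fell (36.2%), 7 rose (12.1%) and 30 did not pass the threshold. Of all genes tested, 13.3% fell and 12.5% rose, which is also the background for the counts by role below. The median log2 fold change was -0.58, against 0.00 for all genes tested. Without 1 library at a time, 16 to 23 fell and 4 to 8 rose.

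In the list drawn up for anion channels and transporters, 5 of 14 tested genes fell (35.7%) and 2 rose (14.3%). The list counts Clca4a and Clca4b, and whether their products carry anions was not tested here. The chloride channel gene Clcn2, at 52.1 ± 5.67 and 18.2 ± 5.84 CPM, fell 2.87-fold (edgeR adjusted p = 0.0025). The sodium-bicarbonate cotransporter genes Slc4a7 and Slc4a4, which bring bicarbonate into the cell, fell 2.06-fold and 1.96-fold (adjusted p = 0.0018 and 0.0086). Clca4b and Ano6, the latter a calcium-activated scramblase and channel, fell 1.51-fold and 1.50-fold. The sulfate transporter gene Slc26a2, of the same family as Slc26a3 and Slc26a6 and one of the colonocyte markers, rose instead: it measured 9.34, 9.35 and 11.5 CPM in controls and 23.1, 29.1 and 36.6 CPM with tyramine, 2.94-fold higher (adjusted p = 0.0027). Clca4a also rose, 2.65-fold (adjusted p = 0.0036). So within the SLC26 family the test called falls for Slc26a3 and Slc26a6 and a rise for Slc26a2, while Slc26a11 did not pass (log2 fold change 1.20; adjusted p = 0.34).

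Of 6 tested genes of sodium entry, 2 fell and 0 rose in edgeR, DESeq2 and limma-voom, with 1 rising at an unadjusted p under 0.05. Slc5a1, the sodium-glucose cotransporter, fell 13.3-fold (edgeR adjusted p = 2e-07). Slc9a4, a further sodium-proton exchanger gene, fell 5.13-fold, from 15.6 ± 5.96 to 3.03 ± 1.74 CPM (adjusted p = 0.013), a call that did not hold without control replicate 1 (0.063) or 3 (0.08). Fxyd5, a regulator of the sodium pump and 1 of 5 tested genes of sodium and proton pumps, rose from 0 counts in every control to 15, 24 and 27 counts with tyramine. That is at least 7.77-fold higher, against a floor of 3 counts per control library (edgeR adjusted p = 0.02), and the call was lost without any 1 control library (0.072 to 0.09) and without the low-count filter (0.052), which Fxyd5 passed through the tyramine libraries alone. With the replicate number as a block, the call of Fxyd5 was lost too (edgeR adjusted p = 0.081).

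Of 6 tested potassium channel genes, Kcnq1, whose basal channel sustains the driving force for chloride exit, went from 46 ± 2.28 to 17.7 ± 5.6 CPM, a 2.61-fold fall (edgeR adjusted p = 0.003). Its partner subunit Kcne3 did not pass, at 8.09 ± 0.811 and 5.02 ± 2.24 CPM (adjusted p = 0.37). Kcnk1 was 104 ± 5.44 and 117 ± 5.22 CPM (adjusted p = 0.34). Of 4 tested carbonic anhydrases, the membrane enzyme gene Car9 fell 7.52-fold and the cytosolic enzyme gene Car13 2.01-fold (adjusted p = 7.3e-06 and 0.0075), beside the 2.83-fold fall of Car2. None of the 3 aquaporins tested beside Aqp1 passed the threshold in edgeR or DESeq2, and 1 fell with limma-voom. Aqp4 fell at an unadjusted p under 0.05 in edgeR, but was not the one called by limma-voom (limma-voom adjusted p = 0.16). It averaged 1.25 ± 0.134 and 0.182 ± 0.0488 CPM (edgeR adjusted p = 0.1). Aqp11 averaged 5.26 ± 1.11 and 0.975 ± 1.57 CPM (0.26), and Aqp3 0.47 ± 0.181 and 2.83 ± 2.33 CPM (0.16).

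Of 20 regulators of epithelial ion transport, 10 fell (50%) and 4 rose (20%), against 13.3% and 12.5% of all genes tested. Gucy2c, which encodes guanylate cyclase C, the receptor that raises cGMP, fell 2.04-fold (edgeR adjusted p = 0.00057). Prkg2, whose kinase acts on CFTR, fell 4.95-fold, from 120 ± 0.67 to 24.2 ± 5.56 CPM (adjusted p = 1.7e-05). Guca2a, the guanylin gene, fell 2.23-fold (adjusted p = 0.041), a call lost without the low-count filter (0.058), any 1 control library or tyramine replicate 1 or 2. The call was also lost with the replicate number as a block (edgeR adjusted p = 0.077). Guca2b, the uroguanylin gene, did not pass (log2 fold change -1.46; adjusted p = 0.19). Chp2, a cofactor of sodium-proton exchangers, fell 3.59-fold and Ahcyl2, related to the bicarbonate transport regulator IRBIT, fell 1.69-fold (adjusted p = 0.00031 and 0.0027). Chp1, listed beside Chp2, rose 1.3-fold instead (edgeR adjusted p = 0.033), a call lost in 7 of the 14 alternatives.

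Abcc4, whose product exports cAMP and sits near CFTR in the apical membrane, rose most of the 4 regulators that rose: it measured 13.7, 11 and 8.24 CPM in controls and 159, 137 and 144 CPM with tyramine. No library of one group came near the other. The rise was 13.4-fold (edgeR adjusted p = 1.8e-06; log2 fold change 3.74, SE 0.206). Among the kinases that act on NKCC1, Wnk1 rose 1.47-fold (adjusted p = 0.0044) and Oxsr1 1.50-fold (0.018), and Stk39, which encodes SPAK, fell 1.70-fold (0.022). Wnk4, at 8.56 ± 3.19 and 2.19 ± 1.65 CPM, did not pass (log2 fold change -1.96; adjusted p = 0.089), without overlap of the groups. The call of Stk39 depended on each control library, and Oxsr1 lost its own without control replicate 1 or 3 or tyramine replicate 2. The scaffold genes Slc9a3r1 (NHERF1) and Ezr, which anchor NHE3 and CFTR, fell 1.30-fold and 1.21-fold (both adjusted p = 0.014), and lost their calls, Slc9a3r1 without control replicate 1 or 2 and Ezr without control replicate 2 or tyramine replicate 2.

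**Figure D4:**
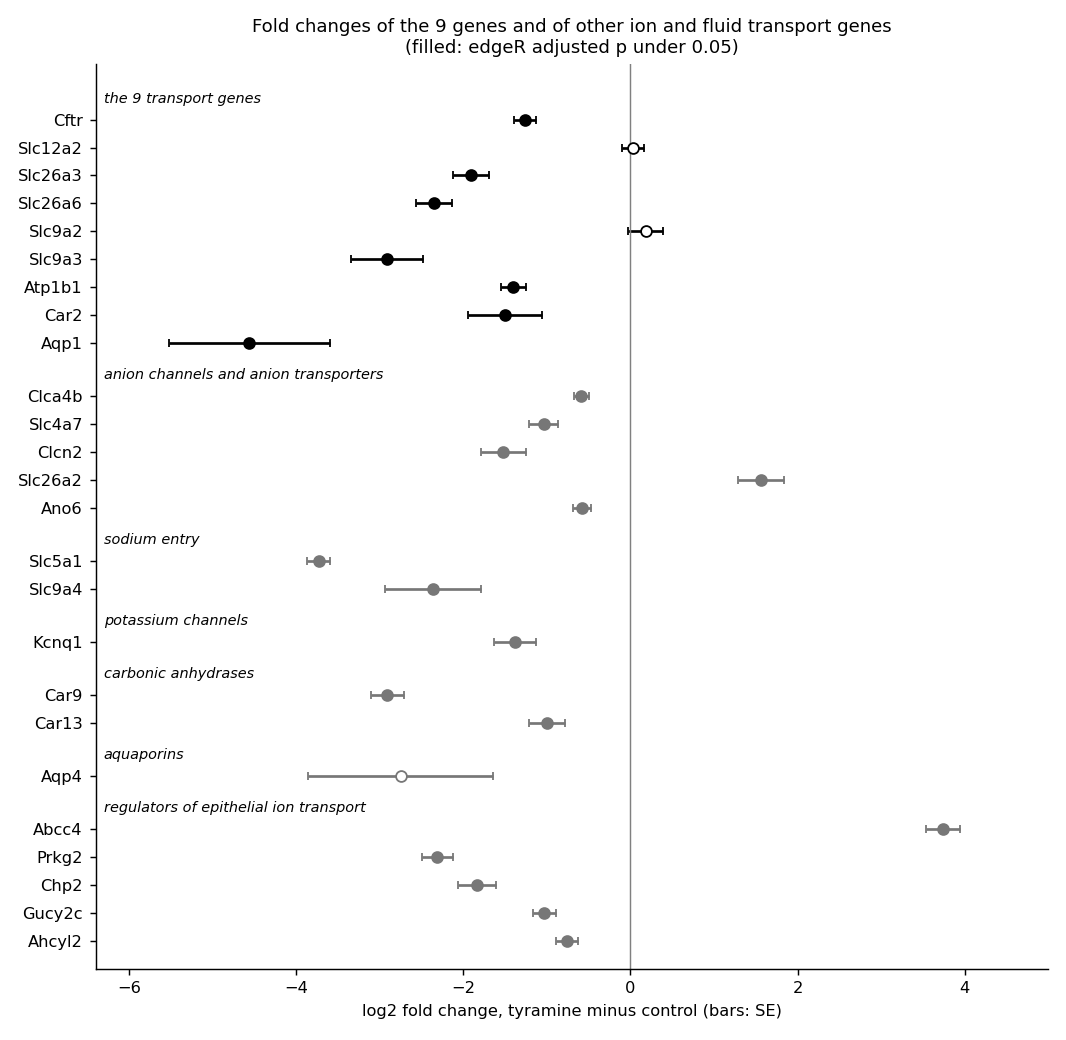
Log2 fold changes, tyramine minus control, of the 9 transport genes (black) and of other ion and fluid transport genes named in the text by rule (grey), with SE as bars; filled points have an edgeR adjusted p under 0.05. Of the 9 genes, 7 lie left of 0 and Slc12a2 and Slc9a2 sit at 0.03 and 0.18; Abcc4 and Slc26a2 lie right of 0. Fxyd5, at 0 in all controls, is not drawn.

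By Pearson correlation of log2 CPM over the 6 libraries, the tested gene of the wider set most like Cftr, Slc26a3 and Slc9a3 was Gucy2c in each case (r = 0.989, 0.994 and 0.991). For Slc26a6 it was Car9 (0.997), for Atp1b1 Ahcyl1 (0.987), for Aqp1 Stk39 (0.987) and for Car2 Wnk4 (0.906). For the 2 genes that did not pass, likeness was low: Slc26a11 for Slc12a2 (0.658) and Kcne3 for Slc9a2 (0.5). The 6 libraries form 2 groups that share depth and scaling, so a high value mostly restates the difference between groups.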

How the data were processed

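RNA of 6 organoid libraries, 3 per group, was sequenced as paired ends after a stranded mRNA preparation with molecular identifiers, per the labels' protocols. The submitters' processing notes name STAR 2.5.3a and genome build mm10. The counting program, annotation, strand setting, filters and the counted unit (reads or identifiers) are not given. Raw counts per gene symbol were deposited, 1 column per library, and matched to samples by title.

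Counts were filtered with filterByExpr (minimum count 10, minimum total 15), scaled by TMM (factors 0.961 to 1.04) and tested with edgeR 4.0.16 (R 4.3.3), quasi-likelihood, robust, with group as its single term, p adjusted by Benjamini-Hochberg over all 12139 genes at 0.05. CPM use library totals times TMM factors, SE is the log2 fold change over the square root of F, and 95% intervals use its t quantile. The floor of 3 counts covers counting error only, while the intervals also cover scatter among these libraries. RPKM divide CPM by the principal coding transcript of GENCODE M21 (GRCm38), or the longest where no principal one is tagged. Ratios add 0.5 to each count. The 14 alternatives covered RLE scaling, library totals, 2 filters, DESeq2 1.42.0, limma-voom (limma 3.58.1), non-robust estimation, a replicate block and each library left out.

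The 9 genes, the lists and the rule for naming genes were chosen with earlier results of these data known. Named by rule were the 9 genes, per role up to 5 called genes with the smallest p or, where none was called, the gene with the smallest p, and the 2 most alike in the wider set. Some results, 1 ratio of 2 genes included, are not reported here. Slc4a4, Clca4a, Slc26a11, Atp1b3, Kcne3, Kcnk1, Aqp3, Aqp11, Guca2a, Guca2b, Chp1, Wnk1, Oxsr1, Stk39, Wnk4, Slc9a3r1 and Ezr, and the genes near zero in the closing section, were chosen after their values were seen. So were the cell type markers named one by one, Slc26a2 aside.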

Additional observations from a re-analysis of the deposited data

How the results depend on the processing

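All 7 calls among the transport genes kept their direction under the 14 alternatives, and 6 of them also kept their side of the threshold; Car2 lost its call in 4 of the fits that left out a library. The counts of called genes were 6 to 7 of the 9 and 20 to 31 of the wider set. Over all genes, the count of 3127 ran from 1977 to 3307 with 1 library left out, and was 1995, 1977 and 2075 without control replicate 1, 2 or 3, against 3074, 2933 and 3307 without tyramine replicate 1, 2 or 3; the cause was not tested. Scaled to library totals alone, 1221 genes rose and 1804 fell. The log2 fold change of Slc12a2 was -0.05 with library totals alone, 0 with the filter at 10 CPM, and -0.03 to 0.11 with 1 library left out. That of Aqp1 was -6.22 with limma-voom, and the cause was not tested. With the replicate number as a block, 2594 genes, 7 of the 9 and 25 of the wider set were called. Same-numbered libraries did not deviate together (r = -0.019, -0.01 and 0.011). That cannot settle whether the numbers pair the libraries, since 3 libraries per group are few and the labels do not say. Depth limits Aqp1 with tyramine, at 0 to 68 counts per library.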

Other observations

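Of the 88 other ion and fluid transport genes, 30 had too few counts to be tested. Among them were the epithelial sodium channel subunits Scnn1b, at 0 counts in all 6 libraries, and Scnn1g, with 6 counts in tyramine replicate 1 and 0 elsewhere. The potassium channel subunits Kcne1 and Kcne2 and the aquaporins Aqp5, Aqp6 and Aqp9 were at 0 counts in every library. Of the colonocyte markers, the carbonic anhydrase gene Car1 and the aquaporin gene Aqp8 were near 0, while Slc26a2 rose from 10.1 ± 1.27 to 29.6 ± 6.79 CPM (edgeR adjusted p = 0.0027): Car1 counts were 7, 17 and 8 for controls, then 10, 10 and 8 for tyramine, and Aqp8 had 19 counts in control replicate 2, 2 in tyramine replicate 2 and 0 elsewhere. Some untested genes had counts in 1 library of a group alone, such as Kcnj15 (99 counts in tyramine replicate 2), Car5b (61 counts in tyramine replicate 2) and Car6 (25 counts in tyramine replicate 3), with 0 counts in the other libraries. Of the tested regulators, Pdzk1 fell (log2 fold change -2.73, edgeR adjusted p = 0.049), with 89, 3 and 108 counts in tyramine replicates 1 to 3. Pdzk1 lost its call in 7 of the 13 alternatives that tested it. Pdzd3, another scaffold gene of the brush border, did not pass (log2 fold change -4.22, edgeR adjusted p = 0.058). It had 45, 0 and 0 counts in those libraries and passed the filter because of the controls.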
